A study of Mus musculus with 9 samples.

Results

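Cell lines grown from leukaemias of Lmo2 transgenic mice were set against thymus labelled Lmo2 transgenic, with 3 arrays on each side, so the comparison used 6 of the 9 mouse arrays of the series. It addresses which transcripts of the transgenic thymus the established lines lost and which they gained. All samples are on the C57BL/6 strain, and the arrays are Illumina MouseWG-6 v2.0 BeadChips. The thymus arrays are TG.966, TG.973 and TG.970, and the lines carry the numbers 3, 175 and 261. The transgene is named CD2-Lmo2, so the CD2 promoter, active in T cells, drives it, and the lines came from T cell leukaemias of such mice. Age, passage, culture conditions, the number of animals behind an array and whether a line is 1 clone are not stated by the labels. Of 45281 probes, the 17400 detected (detection p under 0.05) on at least 3 of the 6 arrays were kept, and they gave 9219 genes, each read by its kept probe with the highest mean. The 3 arrays of wild-type thymus (WT.969, WT.971 and WT.972) are shown beside the comparison and entered no test.

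LMO2 is a LIM-domain protein that binds no DNA itself and bridges helix-loop-helix proteins such as LYL1 and TAL1 and GATA factors to LDB1. It works in blood stem and progenitor cells and falls silent when thymocytes commit to becoming T cells. Kept on in thymocytes, it lets progenitor genes persist and gives rise to T cell leukaemia after a long latency.

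Median raw intensity was 118.5 to 161.2 over the 6 arrays, and 38.2% to 40.8% of probes were detected on the thymus arrays against 35% to 35.2% in the lines. Over the tested genes the lines correlated with each other at r = 0.902 to 0.934, the thymus arrays at 0.939 to 0.966, and thymus with lines at 0.795 to 0.868. Wild-type thymus correlated with the lines at 0.832 to 0.860. The median standard deviation of a gene was 0.34 log2 units among the lines and 0.32 among the thymus arrays. Array TG.973 lay at least 2 log2 units below both other thymus arrays for 110 genes, against 7 for TG.966 and 17 for TG.970. One such gene was the T cell receptor chain gene Cd247 (10.83, 6.01 and 11.05 on TG.966, TG.973 and TG.970). Xist, the RNA that coats the inactive X, read 12.66 and 11.37 on TG.966 and TG.973 and 4.49 on TG.970, and it was between 4.34 and 5.47 in the lines. Y-linked Eif2s3y read 4.35, 4.48 and 10.12 on the same thymus arrays, and 9.56, 4.36 and 4.46 in lines 3, 175 and 261. For both genes TG.970 stood apart from the other thymus arrays, and for Eif2s3y line 3 stood apart from the other lines.

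Levels below are log2 intensities, and values near 4.5 are background. Thymus arrays are given in the order TG.966, TG.973, TG.970 and lines in the order 3, 175, 261. Statements that a call was lost leave out the fit with the replicate number as a covariate (the replicate block). They also leave out the fit with TG.970 as the only thymus array. Both of these fits lost further calls. Lmo2 went against the label of the thymus group. It read 6.95, 6.22 and 5.42 on the thymus arrays and 4.39, 4.87 and 4.34 in the lines, where it was not detected, against 7.95, 8.0 and 8.21 in wild-type thymus. The array labelled transgenic with the highest level lay below every wild-type array. Lmo2 was at least 1.83-fold lower in the lines than on these thymus arrays (limma adjusted p = 0.0353). The Lmo2 call was lost without TG.966, TG.973, line 3, line 175 or line 261, or with no background correction, an offset of 50 or no detection filter (adjusted p = 0.0612 to 0.0931). No label says whether the Lmo2 probe reads the message of the transgene, so the thymus group is called labelled transgenic. Most T lineage markers were at high levels on both sides. The T cell receptor complex gene Cd3d read 13.55, 13.61 and 13.18 in thymus and 12.95, 13.31 and 13.43 in the lines, and the surface glycoprotein gene Thy1 read 13.46, 14.08 and 13.55 and 13.15, 14.33 and 14.10. Of 9 measured T lineage markers 0 rose and 3 fell against 8.34% and 9.59% of all genes tested (median -0.68, or -0.25 with undetected genes at their bound, with 0 falls without TG.966, TG.973, line 3 or line 175 and 1 without TG.970 or line 261). They were the receptor chain gene Cd3e, the transcription factor gene Bcl11b and the surface receptor gene Cd7, which was at least 1.19-fold lower and lost its call without TG.966, TG.973, line 3, line 175 or line 261, or with no background correction or an offset of 50 (adjusted p = 0.0572 to 0.107).

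In all, 1653 of 9219 genes (17.9%) were called different between lines and labelled transgenic thymus by limma at a Benjamini-Hochberg adjusted p under 0.05. They comprised 769 genes higher in the lines (8.34%) and 884 lower (9.59%). Decreases were the larger changes: 187 genes fell and 32 rose by at least 3 log2 units, and the median size was 1.77 log2 units for decreases and 1.27 for increases. The median over all genes tested was 0.08. The groups did not overlap for 4028 genes (43.7%). The number of calls depended on single arrays. It was 483 without TG.966, 892 without TG.973, 947 without TG.970, 694 without line 175, 1018 without line 261 and 1524 without line 3. With TG.970, the 1 thymus array without Xist, set alone against the lines, 66 genes were called. Whether the Xist difference contributes to single calls was not tested beyond this fit. Because whole tissue was set against cultured lines, fewer cells of a type and less RNA per cell cannot be told apart for any decrease. Growth in culture and leukaemia also differ together between the groups. Their effects cannot be told apart for any increase or decrease.

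**Figure D1:**
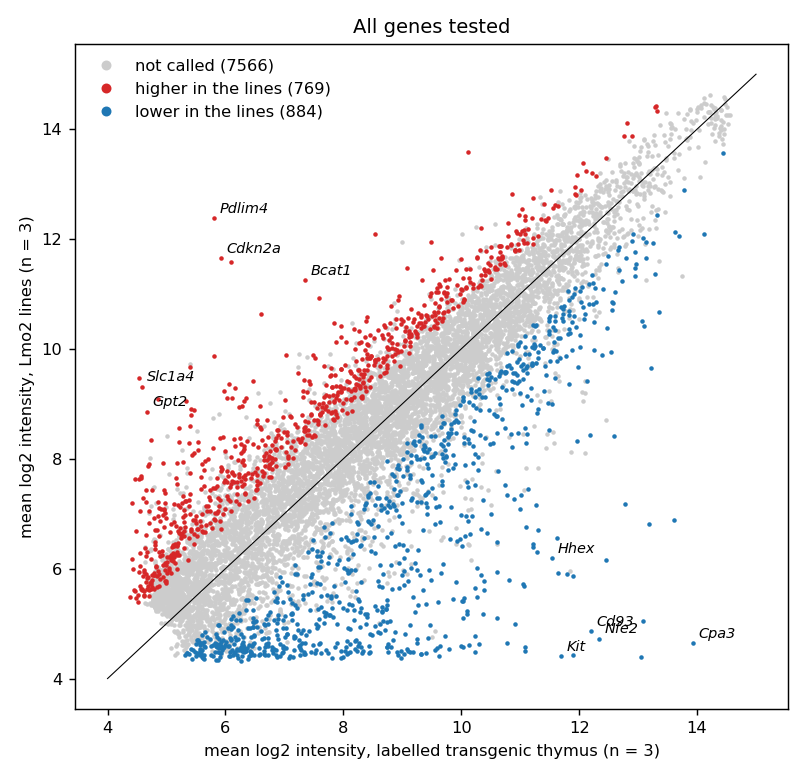
Mean log2 intensity of each of 9219 genes in the lines (vertical axis, n = 3) against labelled transgenic thymus (horizontal axis, n = 3), with the line of equality. Red points are the 769 genes called higher in the lines and blue points the 884 called lower; many blue points lie on the floor near 4.5, where the lines are at background.

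Some genes read in mast cells, megakaryocytes and early blood progenitors were among the largest losses. Cpa3, the carboxypeptidase of mast cell granules, which is also read in early T progenitors, had 13.77, 14.28 and 13.76 in thymus and 4.91, 4.49 and 4.52 in the lines. On this probe all 3 lines were at background while wild-type thymus read 10.57, 10.62 and 10.20. Cpa3 was at least 391-fold lower in the lines (adjusted p = 3.68e-05), and its other kept probes, with a signal in 1 line, differed by -7.46 and -9.06. The promoter of Cpa3 is shown because it headed the decreases and because LMO2 complexes are known to sit on joined E-box and GATA motifs. The 250 bases before its start, chr3:20242182-20242431 on the minus strand of GRCm38.p6 (RefSeq), hold 2 E-boxes (CAGNTG, 116 and 59 bases before the start) and 1 GATA motif (AGATAA, 46 bases before it), in capitals and not overlapping.
Cpa3: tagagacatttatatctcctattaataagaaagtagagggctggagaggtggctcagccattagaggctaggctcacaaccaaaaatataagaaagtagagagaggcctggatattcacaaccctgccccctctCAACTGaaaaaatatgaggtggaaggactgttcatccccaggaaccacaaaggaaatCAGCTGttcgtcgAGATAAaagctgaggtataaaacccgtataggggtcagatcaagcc
Counted on both strands in windows of this length, CAGNTG is in 44.8% and AGATAA in 10% of 32851 promoters. Among the 11 called genes of the LMO2 partner, progenitor and mast cell lists, 9 had a promoter among these. Of the 9, 6 held the E-box in at least 1 promoter and 1, Cpa3, the GATA motif. Counted by promoter, as in the background, 7 of 12 (58.3%) held the E-box and 1 of 12 (8.3%) the GATA motif. A match is a description of letters and shows no binding.

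F2r, a thrombin receptor of platelets and other cells, read 13.29, 13.53 and 12.42 in thymus and 6.14, 4.33 and 4.70 in the lines, and it fell by 8.02 ± 0.53 (adjusted p = 0.000463). Cd93, a surface receptor of early B and myeloid progenitors and of endothelium, read 12.73, 12.19 and 11.67 against 4.83, 4.81 and 4.96. On this probe it was at background in every line and at least 117-fold lower (adjusted p = 0.000106), and its other probe, detected in 2 lines, differed by -5.56. Pf4, a platelet chemokine, read 7.33, 5.78 and 5.67 against 4.37, 4.3 and 4.28 and was at least 1.91-fold lower (adjusted p = 0.0311). The Pf4 call was lost without TG.973, line 3, line 175 or line 261, or with an offset of 50 or no detection filter (adjusted p = 0.0535 to 0.0833). Of the 6 measured genes of the mast cell and megakaryocyte list 0 rose and 4 fell, with a median difference of -4.64 (-3.90 with undetected genes at their bound), against 8.34% and 9.59% of all genes tested. On the probes used, 3 of the 4 that fell (Cpa3, Cd93 and Pf4) were detected in 0 lines. The filter kept these only because all 3 thymus arrays detected them, which fixed their direction. The 2 measured genes that did not fall, Ddc and Hdc, were named after their values were seen. Ddc, which makes dopamine and serotonin from their precursors, read 9.41, 9.66 and 9.91 in thymus and 10.30, 10.02 and 9.44 in the lines, with overlapping groups and a difference of 0.26 ± 0.29 (adjusted p = 0.552). Wild-type thymus lay below both groups for Ddc, at 6.41 to 6.83. Hdc, which makes histamine, differed by -0.68 ± 0.43 (adjusted p = 0.292). The mast cell genes Ms4a2 and Tpsb2 and the megakaryocyte integrin gene Itga2b were not detected on any of the 6 arrays. Whether their probes can read their RNA was not tested. By any probe, 6 of the 15 list members on the array were detected on all 3 thymus arrays. In the lines 9 of the 15 were detected at least once, and 1 in all 3 lines.

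Regulators of stem and early progenitor cells went the same way in part. Nfe2, a leucine zipper factor of megakaryocytes and red cells, read 12.32, 12.86 and 11.82 in thymus and 4.75, 4.74 and 4.69 in the lines, and was at least 129-fold lower (adjusted p = 9.89e-05). Kit, the receptor for stem cell factor, read 11.74, 12.84 and 10.49 against 4.35, 4.50 and 4.38 and was at least 82.4-fold lower (adjusted p = 0.000917). Both were at background in every line and were detected on all 3 wild-type arrays, where Nfe2 read 9.0 to 9.19 and Kit 9.32 to 10.29. Hhex, a homeobox factor of early blood cells, read 11.25, 11.85 and 11.51 in thymus and 7.25, 5.29 and 6.05 in the lines, where line 3 stayed the highest, and it fell by 5.34 ± 0.50 (adjusted p = 0.00174). Igf2bp3, an RNA-binding protein of foetal tissue, read 11.09, 11.41 and 10.47 against 7.64, 9.07 and 4.53, so that it was gone in line 261 and partly kept in the others. It fell by 3.91 ± 1.06 (adjusted p = 0.0476), 2 of its other probes differed by 0.04 and -1.24, and the call was lost without TG.966, TG.973, TG.970 or line 3, or with median scaling, the authors' normalized table or no detection filter (adjusted p = 0.0505 to 0.132). Of 9 measured members 0 rose and 4 fell (median -1.56), against 8.34% and 9.59% of all genes tested. Of the 9, 4 (Nfe2, Kit, Mef2c and Bcl11a) were detected in 0 lines. The filter kept these only because all 3 thymus arrays detected them, which fixed their direction. The 5 members that did not fall were not called. They were the zinc finger gene Gfi1 (-0.26 ± 0.25), the polycomb gene Bmi1 (-0.13 ± 0.23), the hyaluronan receptor gene Cd44 (-1.56 ± 1.37), the zinc finger gene Bcl11a (at least 1.52-fold lower, adjusted p = 0.151) and the MADS-box gene Mef2c (at least 1.65-fold lower, adjusted p = 0.0971), the last 2 not detected in any line. Gfi1 and Bmi1 stood at similar levels on all 6 arrays, whereas Cd44 was at 9.85, 4.50 and 4.59 in the lines, high only in line 3. The difference of Gfi1 changed sign under median scaling, to 0.13. By any probe, 9 of the 21 list members on the array were detected on all 3 thymus arrays. In the lines 5 were detected at least once, and 3 in all 3 lines. Hoxa5, Hoxa7, Hoxa9, Hoxa10, Meis1, Spi1, Erg, Cd34, Mycn and Lin28b were not detected on any of the 6 arrays. Whether the probes of these genes can read their RNA was not tested.

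**Figure D2:**
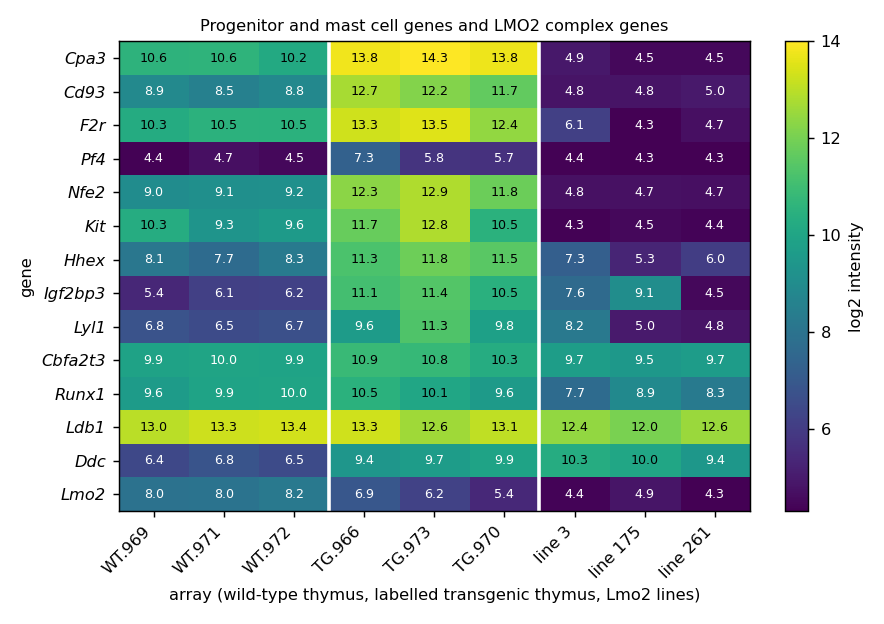
Log2 intensity (colour and number) of progenitor, mast cell and LMO2 complex genes on the 3 wild-type thymus arrays, the 3 labelled transgenic thymus arrays and the 3 lines. Cpa3, Cd93, Nfe2 and Kit are between 4.3 and 5.0 in every line, Lyl1 is kept in line 3, and Ldb1 and Ddc are high in all lines.

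All 3 lines lay below all 3 thymus arrays for 8 of 12 measured partners of LMO2, against 20.3% of all genes tested. By the test, 3 of 12 measured fell and 0 rose, against 9.59% and 8.34% of all genes tested. The median was -0.68, with 0 falls without TG.966, TG.973 or line 261 and 1 without line 175. Lyl1, a helix-loop-helix partner, read 9.63, 11.34 and 9.82 in thymus and 8.22, 4.99 and 4.82 in the lines. Line 3 kept Lyl1 above the wild-type arrays (6.52 to 6.8), and lines 175 and 261 were at background. Lyl1 fell by 4.25 ± 0.96 (adjusted p = 0.0285), a call lost without TG.966, TG.973, TG.970, line 175 or line 261, or with no detection filter (adjusted p = 0.0634 to 0.0852). Runx1, the DNA-binding core binding factor, read 10.48, 10.06 and 9.58 against 7.67, 8.91 and 8.30 and fell by 1.75 ± 0.39 (adjusted p = 0.0275), while its other kept probe differed by -0.13. Cbfa2t3, a corepressor also called Eto2, read 10.88, 10.82 and 10.30 against 9.68, 9.46 and 9.66 and fell by 1.06 ± 0.24 (adjusted p = 0.0296). For both the groups did not overlap, but the Runx1 call was lost without TG.966, TG.973 or line 261, or with the mean of kept probes (adjusted p = 0.0658 to 0.199) and the Cbfa2t3 call without TG.966, TG.973, line 175 or line 261, or with median scaling or the mean of kept probes (adjusted p = 0.0638 to 0.14). Ldb1, the dimerising adaptor that LMO2 binds, remained at 12.42, 12.05 and 12.56 in the lines against 13.29, 12.63 and 13.05 in thymus and was not called (-0.65 ± 0.27, adjusted p = 0.131). The E proteins Tcf3 (0.65 ± 0.60), Tcf12 (-0.51 ± 0.24, with -0.48 and -3.26 on its other kept probes) and Tcf4 (-0.96 ± 0.40), and Gata3 (-0.71 ± 0.32), were not called on the probes used. The same held for the corepressor gene Cbfa2t2 (0.95 ± 0.32), the LDB1 stabilisers Ssbp2 (1.40 ± 0.46) and Ssbp3 (-1.18 ± 0.42), and the related LIM gene Lmo4 (1.28 ± 0.56). Tcf3 changed sign without TG.973 (-0.04). Tal1, Tal2 and Lmo1 were not detected on any of the 6 arrays, and whether their probes can read their RNA was not tested.

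Another 6 genes had been picked beforehand for their height on the labelled transgenic arrays, so that their direction here is not independent evidence. Of these 4 fell and 0 rose (median -4.15), Igf2bp3 among them. The lipocalin Lcn4 (10.93, 12.06 and 9.72 against 4.91, 5.0 and 5.05) was at least 47.8-fold lower (adjusted p = 0.00174), and the receptor Gpr34 (10.21, 10.89 and 9.0 against 4.54, 4.49 and 4.68) at least 26.2-fold lower (adjusted p = 0.00129). Acox2, a peroxisomal oxidase of bile acid synthesis, read 9.39, 11.08 and 9.29 against 5.65, 5.64 and 5.99 and fell by 4.16 ± 0.49 (adjusted p = 0.00422). The limb and lung factor Tbx4 was not called (adjusted p = 0.159), with 11.34, 8.28 and 10.69 in thymus and 10.31, 4.52 and 4.55 in the lines. The muscle ribosomal protein gene Rpl3l likewise read 10.15, 10.29 and 11.39 against 9.71, 5.06 and 4.60 (adjusted p = 0.0669). In line 3 Tbx4 lay within the thymus range and Rpl3l below it, while lines 175 and 261 were at background for both.

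Genes of T cell stages were lowered in part and differed sharply between lines. Of 13 measured Notch target and pre-TCR stage genes 0 rose and 3 fell (median -0.81), against 8.34% and 9.59% of all genes tested. Il2ra, the interleukin 2 receptor alpha chain of the pre-TCR stage, read 9.70, 10.84 and 9.76 in thymus and 4.56, 6.46 and 4.53 in the lines and fell by 4.92 ± 0.59 (adjusted p = 0.0046). Deptor, an mTOR inhibitor under Notch control, read 8.15, 9.37 and 7.69 against 5.55, 5.03 and 4.96 and fell by 3.22 ± 0.45 (adjusted p = 0.00729). In both cases the groups were well apart, and line 175 was the highest line for Il2ra. Bcl11b, the factor of T cell commitment, fell by 1.05 ± 0.26 (adjusted p = 0.0355, and -0.30 on another probe) and lost its call without TG.966, TG.973, TG.970, line 3 or line 175, or with median scaling or the mean of kept probes (adjusted p = 0.0556 to 0.212). Among 12 genes of double-positive thymocytes 1 rose and 3 fell, against the same 8.34% and 9.59%. The median was -1.20, with 0 falls without TG.973 or TG.970 and 1 without TG.966 or line 175. Cd8b1, the CD8 beta chain, read 10.75, 9.42 and 10.18 against 12.83, 13.46 and 14.47 and rose by 3.47 ± 0.50 (adjusted p = 0.00827), while its other probes differed by -1.15 and 4.49. The CD8 alpha chain gene Cd8a was not detected on any of the 6 arrays, thymus included. The antigen-presenting molecule gene Cd1d1 fell by 1.53 ± 0.30, the selection gene Themis fell by 1.38 ± 0.34, and the surface glycoprotein gene Cd24a was at least 1.71-fold lower. These calls were lost for Cd1d1 without TG.966, TG.973 or TG.970, or with median scaling (adjusted p = 0.0505 to 0.0695), for Themis without TG.966, TG.973, TG.970 or line 175, or with median scaling or no detection filter (adjusted p = 0.0558 to 0.11) and for Cd24a without TG.973, TG.970, line 3, line 175 or line 261, or with no background correction or an offset of 50 (adjusted p = 0.0502 to 0.102).

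Genes of mature T cells and of survival were lower in part. Of 10 measured mature T cell and homing genes 0 rose and 4 fell, against 8.34% and 9.59% of all genes tested. The median was -2.15, with 2 falls without TG.966, TG.973 or line 261. Bcl2, which blocks apoptosis, read 9.75, 8.79 and 7.69 in thymus and 4.77, 4.51 and 4.45 in the lines. It was not detected in any line and was at least 10.7-fold lower (adjusted p = 0.00444). Gimap6, a GTPase of lymphocyte survival, read 10.76, 10.62 and 9.78 against 4.71, 4.76 and 7.37 and fell by 4.77 ± 0.73 (adjusted p = 0.0101). Klf2, a factor of T cell quiescence and exit from the thymus, read 10.16, 10.63 and 8.61 against 7.87, 6.2 and 5.57 and fell by 3.25 ± 0.73 (adjusted p = 0.0279). Il7r, the interleukin 7 receptor, was kept in line 175 and at background in the other lines, with 11.21, 11.82 and 10.82 in thymus and 5.05, 9.12 and 4.75 in the lines, and it fell by 4.98 ± 1.12 (adjusted p = 0.0282), with -1.53 on another probe. The Klf2 call was lost without TG.966, TG.973, line 175 or line 261, or with no detection filter (adjusted p = 0.0613 to 0.098) and the Il7r call without TG.966, TG.973, TG.970, line 3 or line 261, or with no detection filter (adjusted p = 0.055 to 0.0906). Of 12 measured BCL2 family genes 0 rose and 3 fell (median -0.04), against the same 8.34% and 9.59%. The 3 were Bcl2, Bcl2a1d (at least 3.59-fold lower, adjusted p = 0.00903) and Bcl2a1b, which fell by 1.58 ± 0.26 (adjusted p = 0.0121). The Bcl2a1 genes are near-identical copies, and their probes may read each other's RNA. The survival genes Mcl1 (-0.11 ± 0.78) and Bcl2l1 (1.59 ± 0.74), named after their values were seen, were not called.

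Some T cell receptor signalling genes fell: 0 of 15 measured rose and 5 fell, against 8.34% and 9.59% of all genes tested. The median was -0.73, with 0 falls without line 175, 1 without TG.966 or TG.973 and 2 without TG.970 or line 261. Lcp2, the adaptor SLP-76, read 8.34, 8.86 and 8.72 in thymus and 6.90, 7.05 and 7.51 in the lines and fell by 1.48 ± 0.26 (adjusted p = 0.0154), with a call lost without line 175 (adjusted p = 0.0517). Rasgrp1, a Ras activator, fell by 1.25 ± 0.25, Cd3e fell by 0.88 ± 0.20 and the adaptor gene Lat fell by 0.80 ± 0.20. The co-receptor Cd6, which fell by 3.65 ± 0.92 (-0.54 on another probe), was the fifth, named after its values were seen, and it ranged widely among the lines (6.24, 8.41 and 10.30 against 11.85, 11.98 and 12.06 in thymus). These 4 calls were less stable, being lost for Rasgrp1 without TG.966, TG.973, line 175 or line 261, or with median scaling or the mean of kept probes (adjusted p = 0.0522 to 0.135), for Cd3e without TG.966, TG.973, TG.970, line 3, line 175 or line 261, or with median scaling (adjusted p = 0.0519 to 0.375), for Lat without TG.966, TG.973, TG.970, line 175 or line 261, or with median scaling (adjusted p = 0.0774 to 0.471) and for Cd6 without TG.966, TG.973, TG.970 or line 175, or with median scaling or no detection filter (adjusted p = 0.0529 to 0.11). Trgv4, a variable segment of the T cell receptor gamma chain, read 13.50, 13.94 and 11.72 in thymus and 4.41, 4.39 and 4.36 in the lines. It was at background in every line, against 13.03 to 13.11 in wild type, and at least 212-fold lower (adjusted p = 0.000429). It was the 1 of 5 measured receptor segments that was called, against 17.9% of all genes tested.

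Cyclin-dependent kinase inhibitors differed by member. Cdkn2a, whose locus encodes p16INK4A and p19ARF and is often deleted in T cell leukaemia, read 6.28, 6.03 and 5.48 in thymus and 11.36, 11.84 and 11.76 in the lines. All 3 lines were far above all thymus arrays, and wild-type thymus was at background (4.37 to 4.56). Cdkn2a rose by 5.72 ± 0.28 (adjusted p = 0.000211), and its other probes differed by 3.27 and 6.27. It was the 1 of 8 measured inhibitors called higher, against 8.34% of all genes tested, and 0 were called lower, against 9.59%. The median of the list was 1.31, with 2 rises without TG.970 and 3 without line 3. Cdkn1a, the inhibitor p21 under p53 control, read 6.32, 4.96 and 5.27 against 4.64, 10.73 and 10.15, high in lines 175 and 261 and at background in line 3, and was not called (adjusted p = 0.202). Of 13 p53 targets 1 rose and 2 fell, against 8.34% and 9.59% of all genes tested (median -0.41, with 0 falls without TG.973, TG.970 or line 261 and 1 without TG.966, line 3 or line 175). The stress gene Sesn2 was at least 3.97-fold higher on its brightest probe (adjusted p = 0.00756), while its other probe, detected on 2 thymus arrays, differed by 0.09. Phlda3 fell by 1.78 ± 0.43 and the death receptor gene Tnfrsf10b fell by 1.55 ± 0.38, with calls lost for Phlda3 without TG.966, TG.973, TG.970, line 3 or line 261, or with no detection filter (adjusted p = 0.0504 to 0.115) and for Tnfrsf10b without TG.973, TG.970, line 175 or line 261, or with no detection filter (adjusted p = 0.0618 to 0.0917). Of 12 T cell leukaemia tumour suppressors 0 rose and 2 fell, Runx1 and Bcl11b, against the same shares (median -0.68, with 0 falls without TG.966 or TG.973 and 1 without TG.970, line 3, line 175 or line 261).

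Pdlim4, an actin-associated adaptor, was the largest increase, with 6.52, 5.67 and 5.22 in thymus and 13.25, 11.06 and 12.81 in the lines. It rose by 6.57 ± 0.62 (adjusted p = 0.00184), its other probe differed by 3.49, and wild-type thymus read 6.78 to 7.33. Cox6a2, the muscle form of a cytochrome c oxidase subunit, read 6.06, 6.74 and 5.47 against 10.17, 12.09 and 12.51 and rose by 5.5 ± 0.65 (adjusted p = 0.00419). Sall3, a zinc finger factor of development, read 5.28, 4.97 and 4.35 against 7.57, 10.25 and 9.45 and rose by 4.23 ± 0.67 (adjusted p = 0.011). These were genes with low levels on every thymus array and high levels in every line. The same pattern held for Isoc2a (6.52, 4.83 and 6.08 against 10.08, 9.85 and 9.65, 4.05 ± 0.44) and the neuronal vesicle gene Nsg2 (6.22, 6.94 and 6.65 against 10.38, 10.04 and 11.49, 4.03 ± 0.42, and 1.25 on another probe). Bcat1, which starts the breakdown of branched-chain amino acids, read 6.85, 7.70 and 7.49 against 10.79, 11.32 and 11.64 and rose by 3.91 ± 0.33 (adjusted p = 0.00129). Nsg2 and Bcat1 were higher in wild-type thymus, at 8.96 to 9.71 and 8.42 to 8.71, than on the labelled transgenic arrays.

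Among the largest decreases not given elsewhere were Dnajc6, an auxilin that uncoats clathrin vesicles, and Plac8, a small protein of myeloid and lymphoid cells. Dnajc6 read 11.04, 11.35 and 10.85 in thymus and 4.39, 4.69 and 4.65 in the lines and was at least 53.9-fold lower (adjusted p = 9.89e-05). Plac8 read 13.63, 13.25 and 12.66 against 5.15, 6.8 and 8.47 and fell by 6.37 ± 0.79 (adjusted p = 0.00477), so both were far lower in every line than on any thymus array.

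**Figure D3:**
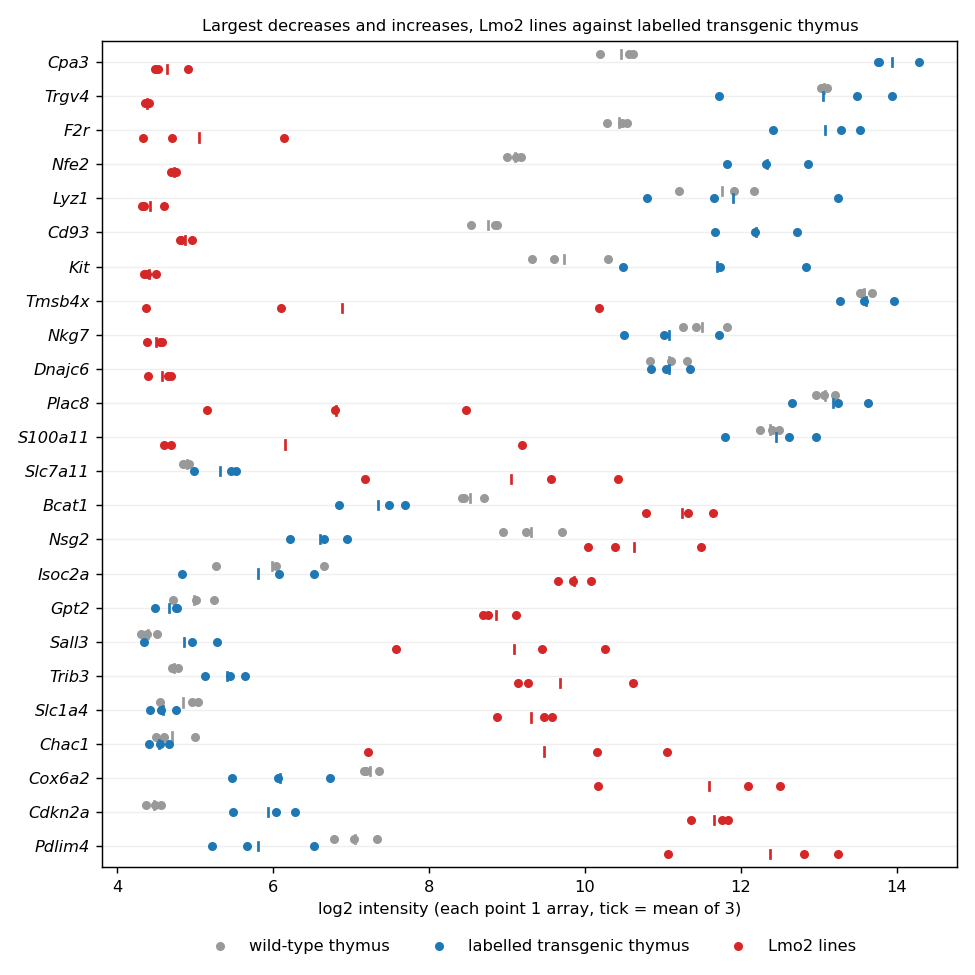
Log2 intensity on each array for the 12 largest decreases and 12 largest increases among called genes (points, 1 array each; ticks, mean of 3). The lines (red) are at background for most of the lost genes and lie above every thymus array for the gained ones, while Tmsb4x and S100a11 are spread widely among the lines.

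The most increases of any list came from the amino acid response under ATF4, a factor translated when amino acids run short or the endoplasmic reticulum is stressed, which switches on genes for amino acid uptake and synthesis. Of 19 measured members 11 rose and 0 fell, against 8.34% and 9.59% of all genes tested, with a median of 2.18 (2.05 with undetected genes at their bound). All 3 lines lay above all 3 thymus arrays for 14 of the 19, against 23.4% of all genes tested. On the probes used, 4 of the 11 that rose (Gpt2, Cth, Chac1 and Sesn2) were detected in all 3 lines and on 0 thymus arrays. The filter kept these only because all 3 lines detected them, which fixed their direction in both counts. The count of rises was 6 without TG.966 and 7 without TG.973 or line 175. Gpt2, which interconverts alanine and glutamate, read 4.76, 4.75 and 4.49 in thymus and 8.70, 8.76 and 9.11 in the lines and was at least 14-fold higher (adjusted p = 0.00024). Trib3, a pseudokinase that feeds back on ATF4, read 5.64, 5.44 and 5.13 against 9.28, 9.15 and 10.61 and rose by 4.27 ± 0.42 (adjusted p = 0.0022). Cth, which makes cysteine from cystathionine, read 4.63, 4.66 and 4.50 against 7.70, 6.96 and 7.20 and was at least 4.69-fold higher (adjusted p = 0.00192). These genes were at or near background on every thymus array and on in every line. An effect of culture on them cannot be told apart from a gain in the leukaemia.

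Chac1, a glutathione-degrading enzyme, read 4.55, 4.40 and 4.67 in thymus and 7.22, 10.15 and 11.06 in the lines, lowest in line 3, and was at least 21.4-fold higher (adjusted p = 0.0162). Slc7a11, the cystine importer, read 5.46, 5.53 and 4.99 against 7.18, 10.43 and 9.57, again lowest in line 3, and rose by 3.73 ± 0.78 (adjusted p = 0.0229). The Chac1 call was lost without TG.966, TG.973 or line 175 (adjusted p = 0.0535 to 0.064) and the Slc7a11 call without TG.966, TG.973, TG.970, line 175 or line 261, or with no detection filter (adjusted p = 0.0522 to 0.0769). Asns, the asparagine synthetase, was not called (adjusted p = 0.174), and the lines divided: it read 5.0, 5.93 and 5.28 in thymus and 11.94, 4.45 and 12.81 in the lines. Lines 3 and 261 were thus far above thymus for Asns while line 175 was at background. The arginine and lysine importer gene Slc7a3 divided otherwise, at 9.84, 10.52 and 4.90 in the lines. Slc1a4, a transporter of alanine, serine and cysteine outside the list, read 4.42, 4.57 and 4.76 in thymus and 9.58, 8.88 and 9.48 in the lines and was at least 19.1-fold higher (adjusted p = 0.000283). Another 5 members of the list, named after their values were seen, also rose: Ddit4 (2.18 ± 0.38), Atf5 (2.05 ± 0.45), Shmt2 (1.98 ± 0.28), Mthfd2 (1.52 ± 0.34) and Psat1 (1.03 ± 0.23). The last 3 are enzymes of serine and one-carbon metabolism. Calls were lost for Atf5 without TG.966, TG.973, line 175 or line 261 (adjusted p = 0.065 to 0.0917), for Mthfd2 without TG.966, TG.973, line 175 or line 261 (adjusted p = 0.0613 to 0.0887) and for Psat1 without TG.966, TG.973, TG.970, line 175 or line 261 (adjusted p = 0.0583 to 0.0992). The transcript of Atf4 itself was not called (0.12 ± 0.24), at 11.73, 12.02 and 12.21 in thymus and 12.29, 11.82 and 12.22 in the lines.

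The promoters of 3 of these genes are shown because each holds the composite C/EBP-ATF motif TGATGNAA, in capitals, in the 250 bases before its start (RefSeq, GRCm38.p6, both strands searched). They lie at chr2:119350992-119351241 on the plus strand for Chac1, chr3:50443614-50443863 on the minus strand for Slc7a11 and chr6:7693210-7693459 on the minus strand for Asns.
Chac1: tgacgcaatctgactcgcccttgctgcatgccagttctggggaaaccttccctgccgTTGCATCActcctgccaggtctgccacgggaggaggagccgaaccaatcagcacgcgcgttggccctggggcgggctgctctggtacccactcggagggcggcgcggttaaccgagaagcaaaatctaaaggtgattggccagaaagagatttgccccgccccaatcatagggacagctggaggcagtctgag
Slc7a11: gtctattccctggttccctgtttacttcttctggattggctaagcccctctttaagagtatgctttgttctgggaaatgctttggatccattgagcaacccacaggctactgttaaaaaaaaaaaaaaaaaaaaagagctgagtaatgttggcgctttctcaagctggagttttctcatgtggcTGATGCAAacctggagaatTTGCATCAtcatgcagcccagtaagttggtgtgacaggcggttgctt
Asns: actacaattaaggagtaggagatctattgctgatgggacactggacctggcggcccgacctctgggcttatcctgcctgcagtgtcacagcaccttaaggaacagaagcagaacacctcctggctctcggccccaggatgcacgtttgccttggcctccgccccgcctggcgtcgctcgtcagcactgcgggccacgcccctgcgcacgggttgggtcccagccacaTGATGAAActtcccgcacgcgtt
The motif starts 193 bases before the start of Chac1, 66 and 47 bases before that of Slc7a11, on opposite strands, and 23 bases before that of Asns. It is in 3.5% of 32851 promoters of this length. Of the 11 list members that rose, 10 had a promoter among these and 2 held the motif. Counted by promoter, as in the background, this was 2 of 12 (16.7%). Of the measured members not called 1 of 7 held it.

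Cytosolic tRNA synthetases, which charge tRNAs with amino acids, were higher in part. Of 17 measured 5 rose and 0 fell, against 8.34% and 9.59% of all genes tested. The median was 0.73, with 2 rises without TG.966 or line 175 and 3 without TG.973 or line 261. Sars, for serine, read 8.37, 8.65 and 8.74 in thymus and 10.32, 10.18 and 10.56 in the lines and rose by 1.76 ± 0.22 (adjusted p = 0.0054). Nars, for asparagine, rose by 1.42 ± 0.21 (adjusted p = 0.00827), and for both genes every line lay above every thymus array. The others were Yars (1.32 ± 0.25), Aars (1.22 ± 0.28) and, named after its values were seen, Eprs (1.01 ± 0.24). Calls were lost for Yars without TG.966 or line 175, or with no background correction (adjusted p = 0.0555 to 0.0642), for Aars without TG.966, TG.973, line 175 or line 261 (adjusted p = 0.0659 to 0.104) and for Eprs without TG.966, TG.973, TG.970, line 3, line 175 or line 261 (adjusted p = 0.0527 to 0.0926). Cholesterol synthesis followed the same direction, with 5 of 15 measured genes up and 0 down, against the same 8.34% and 9.59%. The median was 1.20, with 3 rises without TG.966, line 175 or line 261. Pmvk, the phosphomevalonate kinase, read 6.21, 6.13 and 6.38 against 9.03, 9.16 and 8.65 and rose by 2.71 ± 0.23 (adjusted p = 0.00129). Lss, which closes the sterol rings, rose by 2.10 ± 0.27 (adjusted p = 0.00545, and 0.92 on another probe). Cyp51, which demethylates lanosterol, rose by 1.68 ± 0.26 (adjusted p = 0.0109). Fdps, for farnesyl diphosphate, rose by 1.37 ± 0.27 (0.51 on another probe), and Mvd, named after its values were seen, rose by 1.92 ± 0.42. The Fdps call was lost without TG.966, TG.973, line 175 or line 261 (adjusted p = 0.0519 to 0.0703) and the Mvd call without TG.966, TG.973, TG.970, line 175 or line 261 (adjusted p = 0.0565 to 0.0662).

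Of 27 measured cell cycle and replication genes 3 rose and 1 fell, against 8.34% and 9.59% of all genes tested (median 0.31, with 1 rise without TG.966, TG.973, line 175 or line 261). Ccne1, the G1/S cyclin E1, read 6.25, 6.59 and 6.90 in thymus and 8.89, 8.68 and 8.15 in the lines and rose by 1.99 ± 0.29 (adjusted p = 0.0086). The mitotic genes Aurka and Cdc20 rose (0.97 ± 0.23 and 1.11 ± 0.28) and the G1 kinase gene Cdk6 fell by 2.15 ± 0.48. Each of these calls depended on single arrays, being lost for Aurka without TG.966, TG.973, line 3, line 175 or line 261 (adjusted p = 0.0612 to 0.111), for Cdc20 without TG.966, TG.973, line 3, line 175 or line 261, or with no detection filter (adjusted p = 0.0511 to 0.126) and for Cdk6 without TG.966, TG.970, line 175 or line 261, or with no detection filter (adjusted p = 0.056 to 0.0992). Of 15 glycolysis genes 2 rose and 0 fell, against the same 8.34% and 9.59% (median 0.54, with 0 rises without TG.966 and 1 without TG.970, line 3 or line 175), namely the pyruvate kinase gene Pkm (1.21 ± 0.21) and the aldolase gene Aldoa (1.40 ± 0.34), with calls lost for Pkm without TG.966 (adjusted p = 0.0605) and for Aldoa without TG.966, TG.970, line 3 or line 175, or with no detection filter (adjusted p = 0.0576 to 0.118). Of 14 MYC targets and ribosome biogenesis genes 0 were called by limma (median 0.68), 5 had an unadjusted p under 0.05, and the closest were Odc1 (1.06 ± 0.30, adjusted p = 0.052) and Nop58 (0.82 ± 0.24, adjusted p = 0.0605).

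**Figure D4:**
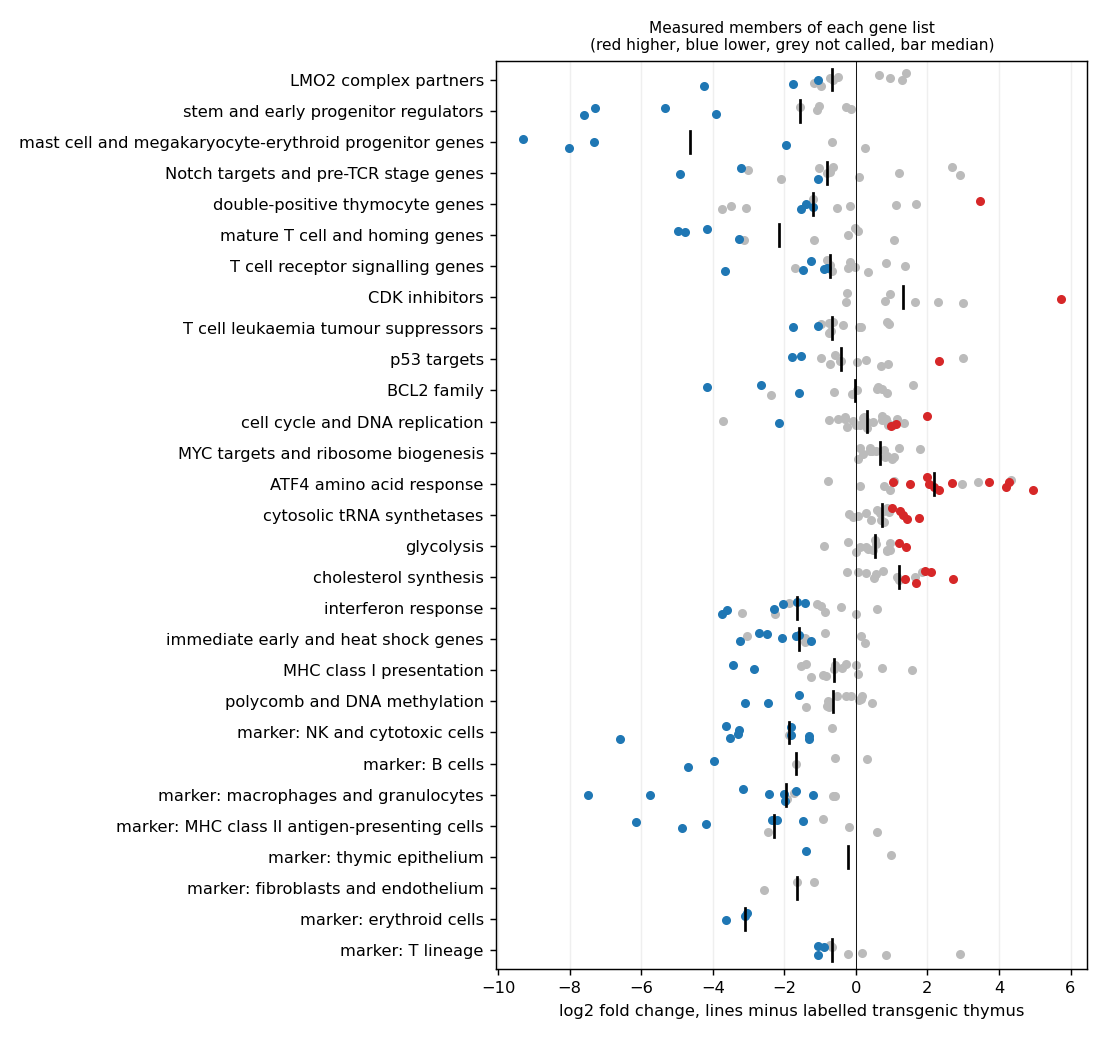
Log2 fold change, lines minus labelled transgenic thymus, of every measured member of each gene list (1 point a gene; red called higher, blue called lower, grey not called; bar, median). Amino acid response and cholesterol genes lie to the right, and mast cell, interferon, immediate early and most cell type marker lists lie to the left. The 2 thymic epithelial markers lie on either side of 0, with a median of -0.21.

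Immediate early and heat shock genes respond within minutes to stimulation or handling. Of 13 measured 0 rose and 7 fell, against 8.34% and 9.59% of all genes tested. The median was -1.58, with 4 falls without TG.966, line 175 or line 261. Egr1, a zinc finger factor, read 10.66, 9.43 and 10.47 in thymus and 7.17, 6.49 and 7.20 in the lines and fell by 3.23 ± 0.39 (adjusted p = 0.0046). The phosphatase genes Dusp2 (-2.72 ± 0.43) and Dusp1 (-2.06 ± 0.31) and the mRNA decay factor gene Zfp36 (-1.58 ± 0.20) fell too, with no line overlapping the thymus arrays. Fos was not called, and line 3 kept it, at 10.55, 4.53 and 6.12 in the lines against 9.71, 9.79 and 10.83 in thymus. Of 15 measured interferon response genes 0 rose and 6 fell, against 8.34% and 9.59% of all genes tested (median -1.64, or -1.08 with undetected genes at their bound, with 2 falls without line 175 and 3 without TG.966). The factor Irf9, which carries the interferon signal to the nucleus, read 9.77, 9.38 and 9.09 against 7.56, 6.54 and 7.25 and fell by 2.30 ± 0.33 (adjusted p = 0.00827). The GTPase gene Gbp2 fell by 3.73 ± 0.68, Irf7 was at least 2.09-fold lower and Oasl2 at least 6.21-fold lower. These 3 calls were lost for Gbp2 without TG.966 (adjusted p = 0.0659), for Irf7 without line 175 (adjusted p = 0.0501) and for Oasl2 without line 175 or line 261, or with no background correction (adjusted p = 0.0553 to 0.0621). Among 15 measured genes of MHC class I presentation 0 rose and 2 fell, against 8.34% and 9.59% of all genes tested (median -0.61, with 1 fall without TG.966). Nlrc5, the transactivator of class I genes, read 7.73, 7.27 and 6.98 against 4.55, 4.39 and 4.54 and was at least 4.01-fold lower (adjusted p = 0.00158). H2-K1 fell by 3.43 ± 0.56, but its other probe differed by 0.97, class I genes are near-identical in sequence, and the call was lost without TG.966 (adjusted p = 0.0525).

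Of 14 measured polycomb and DNA methylation genes 0 rose and 3 fell, against 8.34% and 9.59% of all genes tested (median -0.63, with 1 fall without TG.966). Dnmt3b, a de novo DNA methyltransferase, read 12.20, 11.90 and 11.36 in thymus and 10.04, 8.81 and 9.23 in the lines and fell by 2.46 ± 0.39 (adjusted p = 0.0107). Tet1, which oxidises methylcytosine, read 9.11, 8.79 and 9.07 against 6.61, 6.45 and 4.59 and fell by 3.11 ± 0.54 (adjusted p = 0.0139), lost without TG.966 (adjusted p = 0.0601). The X-linked demethylase gene Kdm6a read 11.31, 11.60 and 10.24 against 9.33, 9.36 and 9.69, higher on the 2 thymus arrays with Xist. It fell by 1.59 ± 0.38, and the call was lost without TG.966, TG.973, line 3, line 175 or line 261, or with median scaling or no detection filter (adjusted p = 0.0578 to 0.111).

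Markers of other cells of the thymus fell alongside the genes above. Of 12 measured macrophage and granulocyte markers 8 fell and 0 rose, against 9.59% and 8.34% of all genes tested. Their median was -1.96, or -1.14 with undetected genes at their bound, with 5 falls without TG.966, TG.973, line 175 or line 261. All 12 were detected on all 3 thymus arrays and 0 in any line. The filter fixed part of this, here, in the marker lists that follow and in every list above with genes detected on 1 side only. A probe seen in 0 lines was kept only if all 3 thymus arrays detected it. Before the filter, 0 of the 18 markers on the array were detected in any line by any probe. The summed level of the 12 was 11.94 to 13.87 (log2) on the thymus arrays and 8.14 to 8.18 in the lines. Lyz1, a lysozyme, read 13.25, 11.66 and 10.80 against 4.32, 4.35 and 4.60 and was at least 95.6-fold lower (adjusted p = 0.00102), although its near-identical copy Lyz2 may share its probe. Of 11 NK and cytotoxic cell markers 9 fell and 0 rose (median -1.86), against the same 9.59% and 8.34%. Their summed level was 11.60 to 12.56 in thymus and 9.14 to 9.32 in the lines. Nkg7, a granule protein of cytotoxic cells, read 11.01, 11.73 and 10.50 against 4.38, 4.54 and 4.57 and was at least 54.0-fold lower (adjusted p = 0.000211), whereas the perforin gene Prf1, one of the 9, stayed detected in all lines (8.32, 8.5 and 8.57 against 9.81, 9.70 and 9.79). Of 10 markers of antigen-presenting cells with MHC class II 6 fell and 0 rose, against the same shares. The median was -2.28, or -1.68 with undetected genes at their bound. Summed levels were 11.18 to 13.20 in thymus and 8.65 to 9.86 in the lines. The invariant chain gene Cd74 was at least 43.6-fold lower (adjusted p = 0.00159), while the class II gene H2-Ab1 was kept in lines 175 and 261 (5.44, 9.02 and 8.36).

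Of 5 B cell markers 2 fell and 0 rose, against 9.59% and 8.34% of all genes tested. The 2 were the receptor chain gene Cd79b (at least 17.2-fold lower, adjusted p = 0.0034) and the kinase gene Blk (at least 8.73-fold lower, adjusted p = 0.00424). Summed levels were 9.24 to 10.95 in thymus and 7.20 to 7.59 in the lines. All 3 measured erythroid markers, the haemoglobin genes Hba-a1, Hbb-bs and Hbb-bt, fell, against 9.59% of all genes tested. Their summed levels were 8.76 to 10.89 in thymus and 6.42 to 6.51 in the lines. The Hba-a1 call was lost without TG.966, TG.973, line 3, line 175 or line 261, or with no background correction, an offset of 50, normalization over the 6 arrays, no detection filter or array weights (adjusted p = 0.0531 to 0.127), and the beta globin genes are near-identical. Of 2 thymic epithelial markers Aire was at least 1.47-fold lower, a call lost without TG.966, line 175 or line 261, or with no background correction, an offset of 50 or no detection filter (adjusted p = 0.0504 to 0.249), and the chemokine gene Ccl25 was not called (0.99 ± 0.48). Of 3 fibroblast and endothelial markers 0 were called by limma and 2 had an unadjusted p under 0.05. The part of these cells in the losses of progenitor, mast cell, interferon, immediate early and survival genes was not tested. On the probes used, Cpa3, Kit and Nfe2 were at background in every line, as were the macrophage markers.

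By detection, 441 genes (4.78% of those tested) were seen on all 3 thymus arrays and in 0 lines, and 296 of them were called lower. Of the 441, 312 were also detected on all 3 wild-type arrays and 45 on none. In the other direction 95 genes (1.03%) were seen in all 3 lines and on 0 thymus arrays, 76 of them called higher. Of the 95, 45 were detected on 0 and 6 on all 3 wild-type arrays. The second count rose to 147 without TG.973.

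The lines differed among themselves. Over all genes tested, 377 (4.09%) differed by more than 3 log2 units among the lines, against 92 among the thymus arrays. Line 3 lay at least 2 log2 units below both other lines for 127 genes and above both for 136, against 71 and 50 for line 175 and 58 and 63 for line 261. Several genes of Notch signalling and of receptor rearrangement, named because they differed by over 3 log2 units among the lines, were lowest in line 3. Notch1, the receptor, read 4.95, 11.17 and 11.02 in the lines against 12.42, 11.81 and 11.98 in thymus. Its target Hes1 read 4.55, 8.44 and 9.59 and the Notch regulator Dtx1 4.79, 9.67 and 9.55, and Notch3 read 4.86, 9.53 and 9.68. Rag1, the recombinase, read 4.88, 10.97 and 11.23 in the lines against 8.95, 9.49 and 9.10 in thymus. Dntt, the terminal transferase, read 4.72, 10.83 and 10.56 and the pre-TCR alpha chain gene Ptcra 4.93, 11.08 and 10.46. In each of these line 3 was at background and lines 175 and 261 were well above it.

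These genes were not called, with adjusted p between 0.129 for Dntt and 0.955 for Rag1. Without line 3 the differences of Notch3 (0.55), Dtx1 (0.80) and Rag1 (1.92) turned upward. Rag1 and Ptcra in lines 175 and 261 lay above the labelled transgenic arrays, where Ptcra read 4.93, 6.49 and 6.27. Hey1, a further Notch target, was at 5.05, 9.78 and 8.36 in the lines and 4.79, 5.25 and 5.10 in thymus, and so was on in lines 175 and 261 and low elsewhere. Levels of Lyl1, Tbx4, Rpl3l and Cd44, given above, were high in line 3 and near background in the others. Line 3 was also the highest line for Tmsb4x, an actin-binding peptide (10.18, 6.10 and 4.38 against 13.59, 13.96 and 13.27 in thymus), and S100a11, a calcium-binding protein (9.19, 4.60 and 4.69 against 12.62, 12.96 and 11.80). Both were among the 12 largest decreases, and their calls were lost for Tmsb4x without TG.966, TG.973, TG.970 or line 175 (adjusted p = 0.0534 to 0.0724) and for S100a11 without TG.966, TG.973 or line 175 (adjusted p = 0.0541 to 0.0696). D-type cyclins differed by line: Ccnd2 read 10.25, 4.66 and 4.38 and Ccnd1 5.43, 5.55 and 11.09. Line 3 thus had Ccnd2, line 261 had Ccnd1, and line 175 was low for both, while thymus read 11.67, 10.76 and 7.97 for Ccnd2 and 7.37, 6.21 and 6.26 for Ccnd1. Without line 261 the difference of Ccnd1 turned to -1.13. Each line is a single array, so these are values without replicates.

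**Figure D5:**
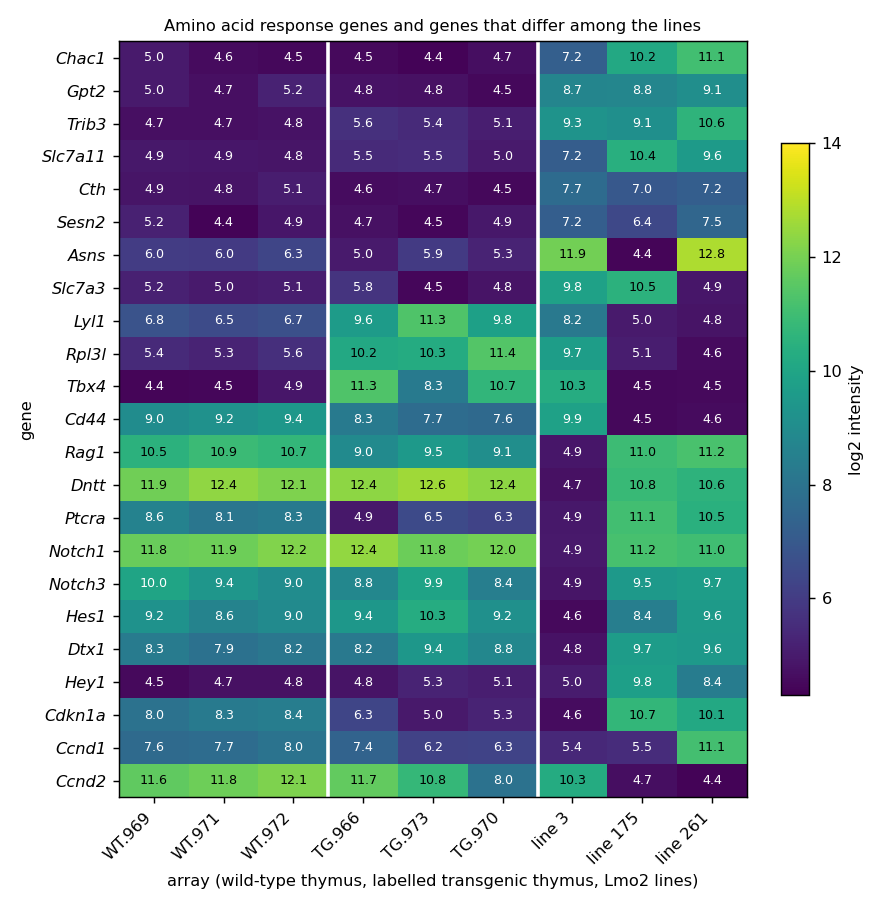
Log2 intensity (colour and number) of amino acid response genes and of genes that differ among the lines, on all 9 arrays. Line 3 is at background for Rag1, Dntt, Ptcra, Notch1 and Cdkn1a and keeps Lyl1, Rpl3l, Tbx4, Cd44 and Ccnd2, and Asns is at background in line 175 alone among the lines.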

How the data were processed

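Total RNA of 9 samples was hybridised to Illumina mouse BeadChips, and 6 arrays entered the comparison. The authors deposited raw probe intensity values and a detection p-value per probe and array, per the file headers, which the submitters' processing notes link to BeadStudio. They also deposited a normalized log2 table, for which these notes name limma, and it correlated with the values used here at r = 0.9993. No label or header names versions or normalization steps.

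Here the intensities of all 9 arrays were background-corrected and quantile-normalized with neqc (offset 16, background estimated from the detection p-values) in limma 3.58.1 under R 4.3.3. Of 17400 kept probes, 2681 had no single gene symbol in the platform annotation and were left out of gene counts. Of 45281 probes, 34885 had 1 symbol, 18 several and 10378 none, and 34807 matched RefSeq names. Of the tested genes 3662 had more than 1 kept probe. Lines minus labelled transgenic thymus was fitted on 6 arrays with lmFit and eBayes, with Benjamini-Hochberg adjustment over 9219 genes and a threshold of 0.05. Errors after ± are standard errors of the fitted log2 difference, with n = 3 in each group. Where a probe was detected on all 3 arrays of 1 group and 0 of the other, the fold is a bound: the mean of the higher group against, per array of the other, the higher of its own value and the lowest detected signal. The script was tested on simulated data. The number of arrays limits the precision, and nothing says that samples are independent beyond their labels, so p-values measure the spread between these samples, which may be technical in part.

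The gene lists, their members and the compared groups were chosen with earlier results of these data known. Named genes were Lmo2, 5 markers, the 12 largest increases and 12 largest decreases among called genes whose groups did not overlap, all measured LMO2 partner and progenitor genes, and up to 4 called members in each direction of every other list by smallest p. List members differing by over 3 log2 units among the lines, and Xist and Eif2s3y, were named too. Some genes meeting this rule are not reported here. Replicate numbers pair no samples: same-numbered arrays deviated from their group means with correlations of 0.033, -0.015 and -0.078. Alternatives covered background, scaling, filters, probe choice, array weights, the replicate block and leaving out each array.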

Additional observations from a re-analysis of the deposited data

How the results depend on the processing

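The 1653 calls became 483 to 1524 when 1 array was left out, with 129 to 693 higher and 354 to 831 lower in the lines, and these fits have fewer samples. They became 744 (264 higher, 480 lower) with the replicate block, although the replicate numbers pair no samples, and 66 (5 and 61) with TG.970 as the only thymus array, whose spread was then taken to equal that of the lines. With all 9 arrays in the fit 2817 genes were called (1433 and 1384), and with every kept probe by itself 3378 probes (1541 and 1837). Genes seen on all thymus arrays and in 0 lines numbered 512 to 609 when a line was left out. The reverse numbered 129 to 147 when a thymus array was left out. Leaving out a thymus array could not change the first count (441), nor a line the second (95). The filter forced this, because a probe seen on 0 arrays of a group was kept only if all 3 of the other group detected it. Per probe, with no array left out, the set seen in thymus only numbered 766 and the reverse 162. At a detection p under 0.01 the reverse set had 51 genes. The other settings called between 1411 and 2103 genes. Of 100 named genes called, 20 kept their call and 0 changed sign in all 19 settings, 60 kept it in all but TG.970 alone, and 34 lost it without TG.966. Named genes that were not called changed sign in places, and the cause was not tested: Xist with TG.970 alone (0.28), Gfi1 with median scaling (0.13), and Tcf3 with TG.970 alone (-0.075). Rag1 turned to 0.38 without background correction, 0.14 with an offset of 50, 0.043 with median scaling and 0.50 with array weights. With 1 array left out, Notch3, Dtx1, Rag1, Tcf3 and Ccnd1 changed sign, with ranges of -1.86 to 0.55, -1.64 to 0.80, -1.26 to 1.92, -0.042 to 1.02 and -1.13 to 1.70. Median scaling moved the median of all genes from 0.08 to 0.17.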

Other observations

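Beyond the gene lists, further genes stood on 1 side only, all named after their values were seen. Ifi47, an interferon-induced GTPase, read 10.40, 10.34 and 10.16 on TG.966, TG.973 and TG.970 and 4.88, 4.39 and 4.62 in lines 3, 175 and 261, and was at least 31.5-fold lower in the lines (adjusted p = 9.89e-05). The signal transducer gene Stat4 read 9.50, 10.38 and 9.30 against 4.67, 4.65 and 5.01 and was at least 21.2-fold lower (adjusted p = 0.000476). The complement regulator gene Cd59a, the receptor tyrosine kinase gene Axl and the zinc finger gene Zeb2 were at least 30.0-fold, at least 18.7-fold and at least 13.2-fold lower. All 5 were detected on all 3 wild-type arrays. In the other direction Cyp11a1, which starts steroid hormone synthesis, read 4.53, 4.91 and 4.66 in thymus and 7.54, 7.53 and 8.63 in the lines and was at least 7.19-fold higher (adjusted p = 0.0032). The haem oxygenase gene Hmox1 read 4.48, 4.49 and 4.43 against 6.94, 8.01 and 7.92 and was at least 5.93-fold higher (adjusted p = 0.0026), and the phosphatase gene Dusp14 was at least 6.19-fold higher. Calls of these 8 genes held when any 1 array was left out.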
